A study of Homo sapiens with 6 samples.

Results

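The miR-181 family was described by arm and by precursor in Panc-1 cells, a human cell line that was established from a pancreatic ductal adenocarcinoma. The family was taken as the 10 mature miRNAs made from its 6 precursor genes, found by name among the 2565 miRNAs on the array, of which 1457 were tested. These members were selected on their own values in the comparison of TGF-β with control, after an earlier look at the same arrays. That comparison is therefore given for them as a description, with no p-value for any member. The members that passed across the array are counted only beside the share of all miRNAs, and no support is drawn from the count.

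The question of the series was which miRNAs differ between Panc-1 cells with and without TGF-β. Control cells received TGF-β at 0 ng/mL and treated cells at 10 ng/mL, in both cases for 72 h. Total RNA from the whole cultures was labelled with Cy5 and hybridised to 3D-Gene arrays read in 1 colour, with 3 control arrays and 3 TGF-β arrays. Each array held 3200 spots, among them 320 blank spots without a capture sequence. The names of the deposited files, though not the labels, place the control arrays on a shared slide and the TGF-β arrays on another. If this holds, slide and treatment cannot be told apart.

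A miRNA precursor folds into a hairpin, and either side of its stem can be kept as a mature miRNA, called the 5p or the 3p arm. Bases 2 to 8 of the mature miRNA, the seed, largely decide which mRNAs it pairs with. The miR-181 family is best known for its part in the development of lymphocytes, and TGF-β is a cytokine that drives the epithelial-mesenchymal transition in carcinoma cells.

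The mature sequences show how little separates some of the members, and which of them share a seed. All 10 members matched an entry of the RefSeq table for GRCh38.p14, from which the sequences were taken. They are written 5′ to 3′ with the seed in capitals. The 10 members carried 6 different seeds, and the 4 members of the 5p side shared the seed ACAUUCA:
hsa-miR-181a-5p: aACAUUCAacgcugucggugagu
hsa-miR-181b-5p: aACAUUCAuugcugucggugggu
hsa-miR-181c-5p: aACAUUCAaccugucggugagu
hsa-miR-181d-5p: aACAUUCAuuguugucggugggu

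Counted from 1 at the 5′ end, miR-181b-5p differed from miR-181a-5p by A9U, C10U and A21G, with the base of miR-181a-5p written first. From miR-181a-5p to miR-181d-5p the differences were A9U, C10U, C12U and A21G, so that only C12U separated miR-181b-5p from miR-181d-5p. The sequence of miR-181c-5p had 22 bases against 23 for miR-181a-5p and was otherwise the same.

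On the 3p side the arms were less alike, and only miR-181b-3p and miR-181b-2-3p shared a seed. The sequences of the 3p arms, in the same order of letters, were:
hsa-miR-181b-3p: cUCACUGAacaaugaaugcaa
hsa-miR-181b-2-3p: cUCACUGAucaaugaaugca
hsa-miR-181a-3p: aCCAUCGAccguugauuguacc
hsa-miR-181a-2-3p: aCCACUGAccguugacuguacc
hsa-miR-181c-3p: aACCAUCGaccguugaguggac
hsa-miR-181d-3p: cCACCGGGggaugaaugucac

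The pair miR-181a-3p and miR-181a-2-3p differed by U5C, C6U and U16C, of which U5C and C6U lie in the seed. The sequences of miR-181a-3p and miR-181c-3p shared an unbroken run of 15 bases, which starts at a different base in each, so their seeds were not the same. Outside the family, and among the 2281 of 2588 array names for which a sequence was found, the nearest mature sequence was miR-4276, at an edit distance of 6 from miR-181b-2-3p.

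The 6 precursor genes lie in pairs at 3 loci of GRCh38.p14. On the minus strand of chromosome 1, MIR181A1 (chr1:198859044-198859153) and MIR181B1 (chr1:198858873-198858982) are 61 bases apart and lie within the host gene MIR181A1HG. On the plus strand of chromosome 9, MIR181A2 (chr9:124692442-124692551) and MIR181B2 (chr9:124693710-124693798) are 1158 bases apart and overlap MIR181A2HG and NR6A1. On the plus strand of chromosome 19, MIR181C (chr19:13874699-13874808) and MIR181D (chr19:13874875-13875011) are 66 bases apart and overlap the annotated interval of NANOS3. The 5p arms of miR-181a and miR-181b are identical between chromosomes 1 and 9, and their values cannot be assigned to either locus. The 3p arms differ, and each belongs to a locus of its own. This is seen in the hairpins of MIR181A1 and MIR181A2, with both mature arms in capitals:
MIR181A1: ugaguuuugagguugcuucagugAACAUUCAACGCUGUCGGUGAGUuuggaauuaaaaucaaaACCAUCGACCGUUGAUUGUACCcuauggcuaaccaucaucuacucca
MIR181A2: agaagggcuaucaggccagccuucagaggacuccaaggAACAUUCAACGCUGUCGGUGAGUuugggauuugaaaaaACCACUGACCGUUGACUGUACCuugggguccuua

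A miRNA counted as detected on an array when its signal exceeded the trimmed mean of the blank spots plus 2 SD. This limit was 19.5, 20.4 and 22.8 intensity units on control arrays, against 20.7, 19.8 and 22.2 units on TGF-β arrays. The numbers of miRNAs detected were 1531, 1604 and 1592 on control arrays, against 1563, 1787 and 1586 on TGF-β arrays. TGF-β replicate 2 therefore stood above the other arrays in the number detected. Of the 10 members, 8 were detected on all 6 arrays, and miR-181b-2-3p and miR-181d-3p were not. Values per array are given below as the deposited intensities, from which the blank mean had been subtracted and in which each array was scaled to a median of 25 units over its detected miRNAs. Differences and standard errors of single tested miRNAs are from limma on quantile-normalized log2 values above the blank mean. Where the changes of different miRNAs are set against each other, the standard error is not from limma. It comes from the variances, in each group, of their differences within arrays.

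The 5p arms of miR-181a and miR-181b, which pool the loci of chromosomes 1 and 9, were brighter on the TGF-β arrays. The deposited values of hsa-miR-181a-5p were 357, 415 and 374 units on control arrays, against 857, 1115 and 955 units on TGF-β arrays. Those of hsa-miR-181b-5p were 143, 159 and 164 units on control arrays, against 364, 499 and 390 units on TGF-β arrays. For both miRNAs every TGF-β array was above every control array, and the groups did not overlap. In RNA from whole cultures, more of the miRNA per cell and more cells carrying it cannot be told apart. The mean of miR-181a-5p was 382 ± 29.8 units in control cells and 976 ± 130 units in TGF-β-treated cells (SD, n = 3 each), and its log2 difference was 1.19 with a standard error of 0.079. This equals a fold of 2.29, and the 9 pairs of a TGF-β and a control array gave folds from 2.08 to 2.54. For miR-181b-5p the means were 155 ± 10.97 and 418 ± 71.6 units (SD, n = 3 each), and the log2 difference was 1.28 with a standard error of 0.086. The changes of miR-181a-5p and miR-181b-5p differed by -0.081 on the log2 scale with a standard error of 0.094, so the difference was smaller than its error. It depended on the background and the offset, and was 0.083 with no background correction, 0.18 with the blank mean and an offset of 50 units, 0.45 with the local background and this offset, and 0.99 with the local background and no offset.

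The 3p arms of chromosome 1 come from MIR181A1 and MIR181B1. The deposited values of hsa-miR-181a-3p were 162, 193 and 168 units on control arrays, against 357, 493 and 392 units on TGF-β arrays. For hsa-miR-181b-3p they were 41, 50 and 57 units on control arrays, against 130, 149 and 123 units on TGF-β arrays. Both arms were high on all TGF-β arrays and low on all control arrays, without overlap. The log2 difference was 1.11 with a standard error of 0.084 for miR-181a-3p, a fold of 2.16. For miR-181b-3p it was 1.295 with a standard error of 0.146, and the folds of the single pairs of arrays ran from 1.90 to 3.27. The wider range of miR-181b-3p went with a wider spread in both groups after quantile normalization. On the normalized log2 scale its SD was 0.24 on control and 0.155 on TGF-β arrays, against 0.065 and 0.0039 for miR-181a-3p. Before normalization the spread on the TGF-β arrays went the other way. There the signals above the blank mean were 31.2, 31.1 and 31.3 units for miR-181b-3p, against 85.7, 103.1 and 100.1 units for miR-181a-3p.

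The 3p arms of chromosome 9 behaved unequally. The deposited values of hsa-miR-181a-2-3p, from MIR181A2, were 60, 77 and 74 units on control arrays, against 258, 339 and 303 units on TGF-β arrays. The groups were far apart, since the lowest TGF-β array was more than 3 times the highest control array. The mean was 70.3 ± 9.07 units in control and 300 ± 40.6 units in TGF-β-treated cells (SD, n = 3 each), and the log2 difference was 1.96 with a standard error of 0.112, a fold of 3.90. Ranked by log2 difference among the 1457 tested miRNAs, miR-181a-2-3p was number 1, a place that belongs to the choice of the members and is no finding. The other 3p arm of this locus, miR-181b-2-3p from MIR181B2, was close to the background. Its deposited values were 11 and 9 units on control replicates 2 and 3 and 17, 20 and 14 units on the TGF-β arrays, and on control replicate 1 it was not detected. Its 3 TGF-β arrays were above the control arrays, but it entered the fit only because it was detected on all of them, so its difference of 1.03 with a standard error of 0.308 gives no support. Its signal was 3.4 to 4.0 SDs above the blank mean on the control arrays where it was detected and 5.3 to 8.1 SDs on the TGF-β arrays.

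On chromosome 19, MIR181C and MIR181D gave 3 members detected on all arrays. The deposited values of hsa-miR-181c-5p were 61, 59 and 58 units on control arrays, against 100, 132 and 95 units on TGF-β arrays. Those of hsa-miR-181d-5p were 77, 85 and 74 units on control arrays, against 173, 234 and 187 units on TGF-β arrays. Both 5p arms were high on the TGF-β arrays with no overlap, and miR-181c-5p was nearly level across the control arrays. The log2 difference of miR-181c-5p was 0.71 with a standard error of 0.113, a fold of 1.64. It was the smallest among the 9 tested members in this fit, but not under several alternatives. With no background correction it was 0.36, against 0.21 for miR-181c-3p and 0.12 for miR-181b-2-3p. The log2 difference of miR-181d-5p was 1.20 with a standard error of 0.09995, a fold of 2.29. The change of miR-181c-5p was smaller than that of miR-181d-5p by a log2 difference of -0.48 with a standard error of 0.090, a difference that was -0.25 with the blank mean and an offset of 50 units, 0.019 with the local background and this offset, and 0.062 with the local background and no offset.

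The 3p arms of chromosome 19 were dim. For hsa-miR-181c-3p the deposited values were 10, 16 and 13 units on control arrays, against 32, 33 and 24 units on TGF-β arrays. The groups did not overlap, although the control signals were only 3.7 to 6.1 SDs above the blank mean. Its log2 difference was 1.06 with a standard error of 0.208. It fell to 0.47 with a floor of 5 units and to 0.21 with no background correction. For hsa-miR-181d-3p the deposited values were 7 and 8 units on control replicates 2 and 3 and 6 and 12 units on TGF-β replicates 1 and 2, and it was not detected on control replicate 1 and TGF-β replicate 3. The groups overlapped, neither group was measured on all of its arrays, and the member was not tested. The difference of its group means was -0.073 on the log2 scale, with TGF-β replicate 3 at the floor.

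**Figure D1:**
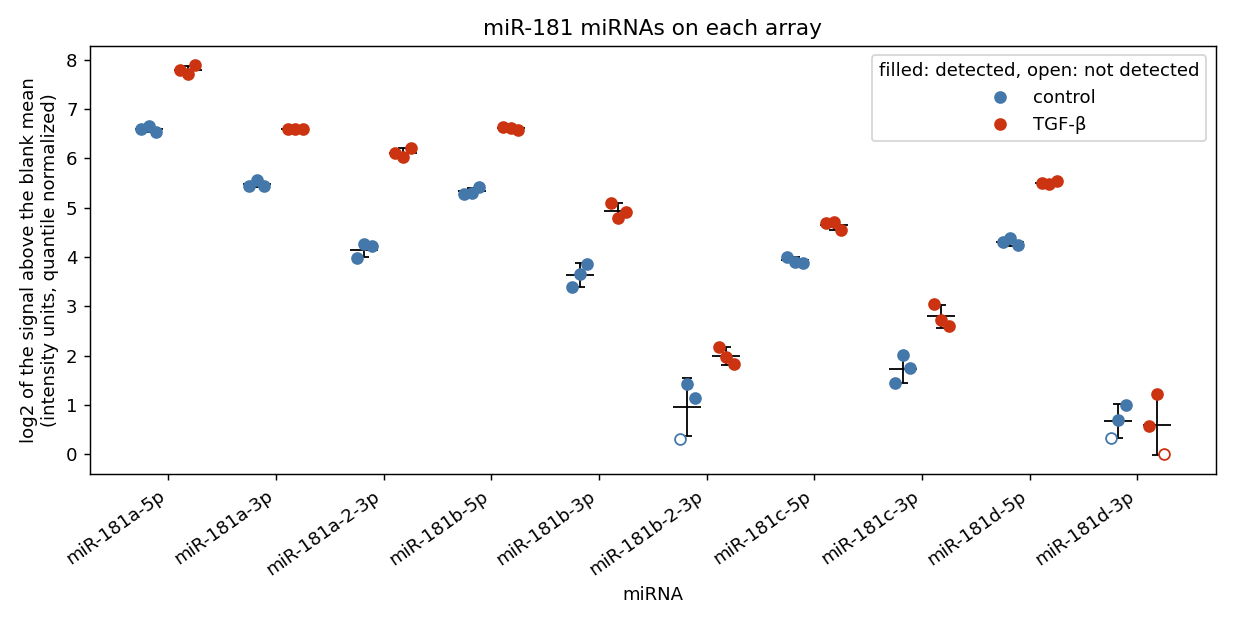
Each point is an array, with the quantile-normalized log2 signal above the blank mean on the vertical axis and the 10 members on the horizontal axis; control is blue, TGF-β is red, open points were not detected, and bars give the group mean and SD (n = 3). The groups are apart for 9 members and overlap for miR-181d-3p.

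Of the 9 tested members, 8 passed an adjusted p of 0.05 in limma as higher in TGF-β-treated cells, beside 2.61% of all 1457 tested miRNAs (38 higher), and 0 did with the local background. The member that did not pass was miR-181b-2-3p. The groups were apart, with TGF-β higher, for 9 of the 10 members, beside 8.79% of all tested miRNAs (128). Nothing can be read from these shares, because the members were chosen by the same comparison. The median log2 difference was 1.15 over the 10 members and 1.19 over the 9 tested, from 0.71 to 1.96, beside a median of -0.0135 over all tested miRNAs. Over all tested miRNAs, 50 (3.43%) had a log2 difference of 0.7 or more.

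**Figure D2:**
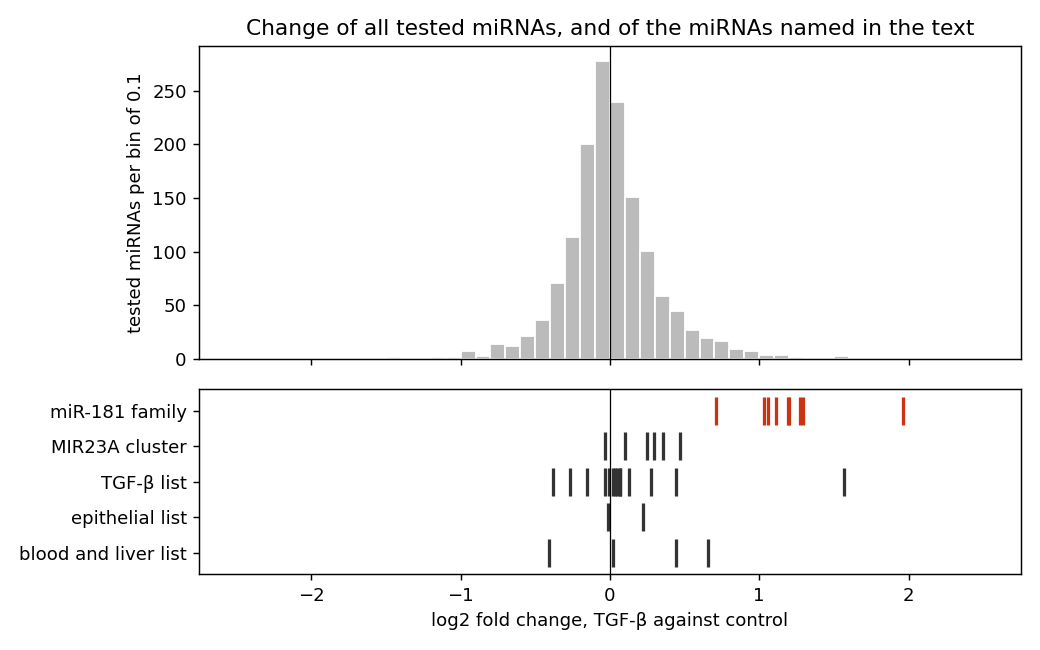
The upper panel is a histogram of the log2 fold change, TGF-β against control, of the 1457 tested miRNAs in bins of 0.1, and each tick in the lower panel is a tested miRNA of the named list. The 9 tested members lie between 0.71 and 1.96, where few of the other miRNAs lie.

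Arms of the same precursor were compared within arrays, as the log2 change of the 3p arm minus that of the 5p arm. For MIR181A1 the difference between arms was -0.083 with a standard error of 0.055, and for MIR181B1 it was 0.019 with a standard error of 0.13. With no background correction these differences were -0.20 and -0.32, with the local background and an offset of 50 units -0.42 and 0.057, with the local background and no offset -0.81 and 0.24, and with the blank mean and an offset of 50 units -0.26 and -0.34. For MIR181A2 the 3p arm changed by 0.77 more than the 5p arm, with a standard error of 0.093, but the 5p arm is pooled with that of MIR181A1. This sign depended on the background and the offset. The difference was 0.20 with no background correction, -0.29 with the local background and an offset of 50 units, -0.53 with the local background and no offset, and -0.081 with the blank mean and an offset of 50 units. Between the homologous 3p arms, the change of miR-181a-2-3p exceeded that of miR-181a-3p by 0.85 with a standard error of 0.089, and by 0.39, 0.13, 0.28 and 0.18 under the same settings in this order. This difference between arms of chromosomes 9 and 1 was not tested, since both values belong to the comparison by which the members were selected. For MIR181B2 the difference was -0.24 with a standard error of 0.33. Its 3p arm entered the fit only through the TGF-β group, so this value gives no support either way. The change of miR-181b-2-3p was 0 with a floor of 5 units and 0.12 with no background correction, against 1.28 and 0.97 for miR-181b-5p. Without control replicate 2 the changes were 1.27 and 1.25 in this order. With the local background and no offset they were 0.12 and 0.086. The sign of the difference thus depended on the setting. For MIR181C the difference between arms was 0.35 with a standard error of 0.23. It turned to -0.24 with a floor of 5 units and -0.14 with no background correction. With the local background and an offset of 50 units it was -0.039. It was -0.10 both with the local background and no offset and with the blank mean and an offset of 50 units. For MIR181D it was -1.27 with a standard error of 0.43, and there the 3p arm was near the background and not detected on all arrays.

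**Figure D3:**
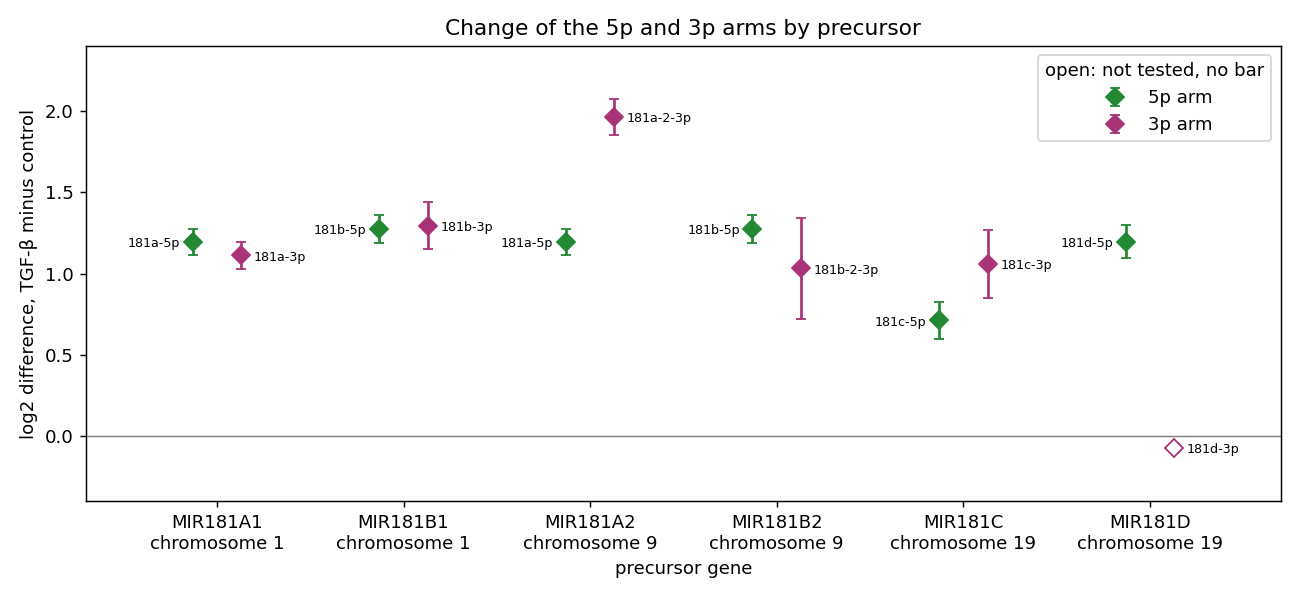
Log2 difference, TGF-β minus control, of the 5p arm (green) and the 3p arm (purple) of each precursor gene, ordered by chromosome, with bars for the standard error from limma; the 5p arms of miR-181a and miR-181b appear at both of their loci with the same value. The arm of MIR181A2 at 1.96 stands above the other arms, and miR-181d-3p (open, not tested) lies at -0.073.

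The changes of members that differ by little in their bases were set side by side. The pair miR-181b-5p and miR-181d-5p, separated by C12U, differed in their change by 0.080 with a standard error of 0.086, and by 0.25 with no background correction, 0.051 with the local background and an offset of 50 units, 0.037 with the local background and no offset, and 0.26 with the blank mean and an offset of 50 units. The pair miR-181a-5p and miR-181c-5p, separated by 1 missing base, differed by 0.48 with a standard error of 0.111, and by 0.70, 0.48, 0.96 and 0.68 under the same settings in this order. Neither difference was tested, since all of these values belong to the comparison by which the members were selected and come from different spots. How far the spots of such near-identical miRNAs capture each other was not tested, since the sequences of the spots were not used here.

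The members followed each other closely over the 6 arrays. For the 8 members detected on all arrays, Pearson's r of each with the mean of the other 7 was between 0.945 and 0.997 (n = 6 arrays), which mostly reflects the gap between the groups that chose them. The mean of the 8 centred members was -0.71, -0.54 and -0.59 for control replicates 1, 2 and 3, against 0.67, 0.57 and 0.60 for TGF-β replicates 1, 2 and 3. Within a group the arrays thus lay close together, with control replicate 1 lowest. All 10 members had their highest deposited value on TGF-β replicate 2, the array with the highest scale factor (4.78 against 3.37 to 4.31 on the other arrays). After quantile normalization only 2 members were highest there, 5 on TGF-β replicate 1 and 3 on TGF-β replicate 3. In the deposited values, the median log2 difference over the 1630 miRNAs that had a value in both groups and on at least 3 arrays was 0.11, so that ratios of deposited values include this shift.

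The scanner also gave a local background beside each spot, and for these members it moved with the spot. Its mean was 90.5 units in control and 168 units in TGF-β-treated cells for miR-181a-5p, and 28.3 and 63.3 units for miR-181a-2-3p. It was higher in TGF-β-treated cells for 8 of the 10 members, and over members and arrays it was between 0.319 and 1.22 of the signal, with a median of 0.735. A high ratio was not particular to the members. Over all spots above 200 units, the median ratio was 0.99, 0.43 and 0.73 on control replicates 1, 2 and 3. On TGF-β replicates 1, 2 and 3 it was 0.81, 0.48 and 0.59. Correcting this local background by normexp with an offset of 50 units, in place of subtracting the blank mean, gave log2 differences of 0.52 for miR-181a-5p, 0.23 for miR-181a-2-3p and 0.0038 for miR-181c-3p. This setting changes both the background and the offset, and the 2 further settings that separate them were chosen after seeing the data. With the local background and no offset the values were 1.07, 0.54 and 0.011 for these members, and with the blank mean and an offset of 50 units they were 0.88, 0.80 and 0.092. Over the tested members the median was 0.075 with the local background and the offset, 0.12 with the local background and no offset, 0.44 with the blank mean and the offset, and 1.12 with the blank mean and no offset, all by normexp. Both the background and the offset thus made the median smaller. All 9 tested members kept a value above 0 in these settings. Across the array, 0 miRNAs passed in limma with the local background at either offset, where 34 had an unadjusted p under 0.05. With the blank mean and an offset of 50 units 53 passed and 201 had an unadjusted p under 0.05, against 58 and 202 with the blank mean subtracted. The correlations between arrays over 1282 miRNAs lay between 0.984 and 0.992 with the blank mean, and between 0.629 and 0.968 when the local background with the offset of 50 was used.

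**Figure D4:**
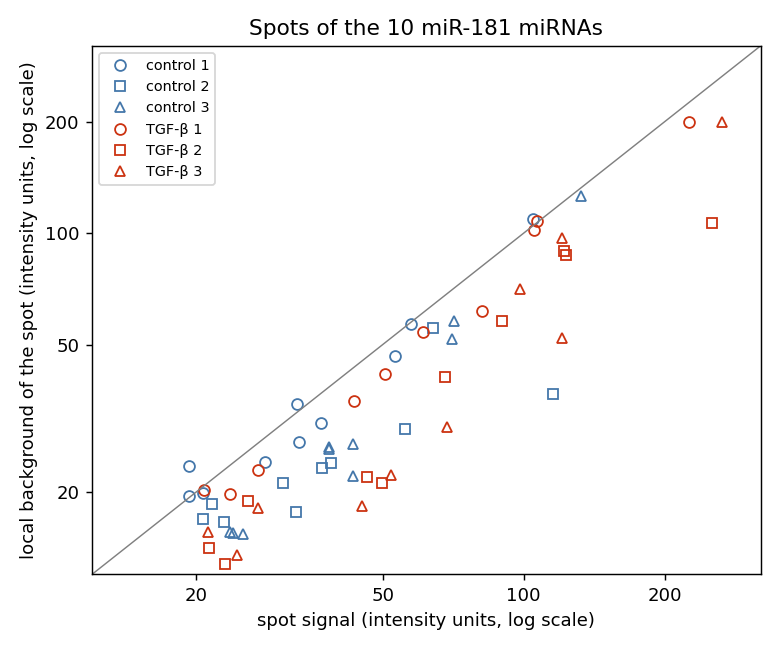
Local background against spot signal, both in intensity units on log scales, for the spots of the 10 members on each array, with control in blue and TGF-β in red; the line marks equal values. The local background rises with the signal on every array, and the points of control replicate 1 lie nearest the line, with a median ratio of 0.976 against 0.611 to 0.867 on the other arrays. Over all spots above 200 units, not shown here, control replicate 1 also had the highest median ratio, at 0.99.

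Outside the family, the miRNAs with the same seed were close to the limit of detection. Among the array names with a sequence, miR-4262 (gACAUUCAgacuaccug) carries the seed of the 5p arms, and miR-4420 (gUCACUGAugucuguagcugag) that of miR-181b-3p. The former was detected on 1 control and 1 TGF-β array and was not tested. The latter was detected on 2 control arrays and all TGF-β arrays, at 6 to 8 units, so it entered the fit only through the TGF-β group, and its log2 fold change of 0.17 with a standard error of 0.39 gives no support either way. Without control replicate 2 its value was -0.052, and with a floor of 5 units it was 0.

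The only other annotated miRNA genes of the array that start within 100000 bases of a miR-181 gene were MIR23A, MIR27A and MIR24-2, a cluster 38112 to 38412 bases from MIR181C. The array held 6 mature miRNAs annotated to these genes, and whether any of them is also made from a gene elsewhere was not examined. All 6 were detected on all arrays, and in limma 2 of them passed as higher and none as lower (2 in its robust fit and 0 with the methods' t-test), beside 2.61% of all tested miRNAs called higher and 3.98% called in either direction. Their median log2 fold change was 0.27. The deposited values of miR-23a-3p were 15429, 17024 and 15927 units on control arrays, against 19115, 26666 and 19674 units on TGF-β arrays. Those of miR-24-2-5p were 295, 406 and 393 units on control arrays, against 468, 647 and 523 units on TGF-β arrays. For both miRNAs all TGF-β arrays were above all control arrays. The log2 fold change of miR-23a-3p was 0.29 with a standard error of 0.048 and a limma adjusted p of 0.00483, and that of miR-24-2-5p was 0.47 with a standard error of 0.097 and a limma adjusted p of 0.0189. The exact permutation test, 2-sided, gave p = 0.1 for each, the smallest that 3 against 3 arrays allow. Over all settings the adjusted p ran from 0.00215 to 0.992 for miR-23a-3p and from 0.0062 to 0.992 for miR-24-2-5p. Without TGF-β replicate 2 both calls were lost, with adjusted p of 0.0824 and 0.098 in limma. The call of miR-24-2-5p was also lost without control replicate 2 (0.0742), TGF-β replicate 1 (0.0925) or TGF-β replicate 3 (0.092). With all arrays, neither passed with the local background at either offset. There the log2 fold change of miR-23a-3p was 0.33 with an offset of 50 units and 1.22 with no offset. For miR-24-2-5p it was 0.12 and 0.32 in this order. The call of miR-23a-3p was also lost under median scaling (0.143), 75th percentile scaling (0.1), no scaling (0.855) and no filter (0.0759), in the deposited values (0.537), in limma without the trend (0.246) and with the methods' t-test (0.0684). That of miR-24-2-5p was lost with a floor of 5 units (0.13), no scaling (0.312) and no filter (0.177), in the deposited values (0.404), in limma without the trend (0.169) and with the methods' t-test (0.179).

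The remaining 4 miRNAs of this cluster did not pass. The log2 fold change was 0.36 for miR-27a-5p (adjusted p 0.36 in limma), 0.25 for miR-23a-5p (0.648) and 0.10 for miR-24-3p (0.439). Of these, miR-24-3p passed without control replicate 1 (log2 fold change 0.18, adjusted p 0.0392 in limma), and its value with the local background and an offset of 50 units was 1.98. For miR-27a-3p it was -0.036 (0.87), and this sign was reversed under median scaling (0.30), 75th percentile scaling (0.26) and no scaling (0.27). Whether the changes of this cluster and of MIR181C and MIR181D differ was not tested.

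Other miRNAs that TGF-β is widely held to raise were taken as a list. Of 15 on the list, all on the array and with miR-27a-3p among them, 14 were tested, and in limma none passed as higher and 1 as lower, with 3 at an unadjusted p under 0.05. Beside the 3.98% of all tested miRNAs that passed, this count is no result about the list. Their median log2 fold change was 0.040. The methods' t-test called 0 of them and limma's robust fit 1. The oncogenic miR-21-5p had a log2 fold change of 0.033 with a standard error of 0.041 and an adjusted p of 0.81 in limma, and its sign turned under median scaling (-0.065), 75th percentile scaling (-0.11) and no scaling (-0.089). With the local background it was 0.29 at either offset. For miR-155-5p it was 0.066 with a standard error of 0.13 and an adjusted p of 0.905.

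The miRNA of the list that passed as lower was miR-10b-5p. Its deposited values were 4876, 6054 and 5401 units on control arrays, against 4003, 5813 and 4313 units on TGF-β arrays. The deposited groups overlap, while the normalized values did not. Its log2 fold change was -0.38 with a standard error of 0.057 and an adjusted p of 0.00294 in limma, and over all settings this p ran from 0.00139 to 0.996. The call was lost under median scaling (0.116), no scaling (0.672) and no filter (0.0501), in the deposited values (0.855), in limma without the trend (0.149), with the methods' t-test (0.0648) and with the local background at either offset. With the local background and an offset of 50 units its sign was reversed (0.23). The muscle-related miR-143-3p had deposited values of 6, 10 and 16 units on control arrays, against 19, 79 and 22 units on TGF-β arrays. All of its TGF-β arrays were above its control arrays, with TGF-β replicate 2 far above the others. Its log2 fold change of 1.57 had a standard error of 0.435 and an adjusted p of 0.0931 in limma, which did not pass. It passed under median scaling (adjusted p 0.0193), 75th percentile scaling (0.0204) and no scaling (0.000937), and with the replicate block (0.0369), but under no other setting. Its log2 fold change fell to 1.03 without TGF-β replicate 2, 0.61 with a floor of 5 units, 0.33 with no background correction, and 0.15 and 0.026 with an offset of 50 units on the blank mean and on the local background.

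Among 6 markers of epithelial cells (miR-205 and members of the miR-200 family), 2 were tested and none passed in limma, in its robust fit or in the methods' t-test, with 0 at an unadjusted p under 0.05. With 2 miRNAs tested, and 3.98% passing over the array, this count says nothing about the list. The log2 fold change was 0.22 for miR-200a-3p and -0.014 for miR-200b-3p, with standard errors of 0.24 and 0.15, and miR-141-3p was detected on no array. The 4 that were not tested were detected on every array of neither group.

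As a check for miRNAs that a pancreatic line should lack, 6 markers of blood and liver cells were examined. Each was detected on at least 1 array, 4 were tested, and none passed in limma, in its robust fit or in the methods' t-test, with 1 at an unadjusted p under 0.05, which with so few tested is no result about the list either. That was miR-486-5p, with deposited values of 70, 93 and 69 units on control arrays, against 62, 66 and 59 units on TGF-β arrays. All control arrays were above all TGF-β arrays. Its log2 fold change was -0.41, with 0.15 as its standard error and 0.217 as its adjusted p in limma. The other tested markers were above 0, at 0.66 for miR-451a, 0.45 for miR-223-3p and 0.020 for miR-142-3p. Their standard errors were 0.45, 0.51 and 0.50, and the median of the list was 0.23. Of these, miR-451a and miR-223-3p entered the fit only through the TGF-β group, while miR-142-3p was detected on all 6 arrays. So was miR-486-5p, at values not below those of miR-181c-5p on the control arrays (61, 59 and 58 units). If the line lacks these markers, detection on all arrays does not by itself show that a miRNA is expressed. The liver miRNA miR-122-5p was detected on 3 of the 6 arrays, at 9 or 10 units.

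Among the 1274 non-member miRNAs detected on all arrays, those most like the mean profile of the 8 members over the 6 arrays were miR-4324 and miR-99a-5p (Pearson's r 0.997 each), miR-100-5p (0.995), miR-483-3p and miR-154-3p (0.992 each). Their log2 fold changes were 0.79, 0.71, 0.75, 1.59 and 0.91 in this order. With the local background and an offset of 50 units they were 0.38, 0.99, 0.26, 0.037 and 0.60, and with the local background and no offset 0.59, 1.00, -0.23, 0.11 and 1.53. The value of miR-483-3p was also 0.31 with no background correction and 0.13 with the blank mean and an offset of 50 units. A profile of this kind is mostly the difference between the groups, so these miRNAs were in effect selected on that difference, and their p-values are not given as support.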

How the data were processed

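The authors deposited a scanner file per array, which gives the linear, unnormalized intensity of every spot and of the local background around it. A table of processed intensities for 2565 miRNAs was deposited as well. It was rebuilt from the scanner output, as the spot intensity minus the mean of the blank spots trimmed by 5% at each end, scaled to a median of 25 per array and left empty where the spot did not exceed the blank mean plus 2 SD. The rebuilt and deposited values differed by at most 0.5 units, which is rounding. The table was on a linear scale, was not centred per miRNA, and had a median of 25 on each array.

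In R 4.3.3 with limma 3.58.1, the trimmed blank mean was subtracted, values were set to at least 1 unit, and log2 values were quantile normalized over the miRNA spots. Spots flagged by the scanner (3 miRNA spots in all) were set as missing. lmFit and eBayes (trend) compared the groups. P-values were adjusted by Benjamini and Hochberg over 1457 miRNAs, those detected on all arrays of 1 group or of both, with a threshold of 0.05. Sequences were matched by name for 2281 of the 2588 miRNA names of the array. Python 3.11.15 and matplotlib 3.10.9 were used for the figures.

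The named miRNAs were the 10 members, miRNAs with the same seed, miRNAs with a gene within 100000 bases, lists of miRNAs raised by TGF-β, of epithelial cells and of blood and liver cells, and the 5 miRNAs most like the family's mean profile. The members and lists were chosen with earlier results of these data known. The paper's text names a t-test but gives none for the arrays, and the methods' t-test was an alternative, as were other background corrections, floors, scalings, filters, models, the deposited values, a block for the replicate number, and leaving out each array in turn. The local background was corrected by limma's normexp with an offset of 50 units, and the local background with an offset of 0 and the blank mean with an offset of 50 were added after seeing the data. The labels do not say that the arrays came from separate cultures, and the general statement of the paper on independent experiments does not name the arrays. P-values are therefore taken to measure only the spread between these arrays, which may be technical. The number of arrays limits the precision.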

Additional observations from a re-analysis of the deposited data

How the results depend on the processing

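The log2 difference of all 9 tested members stayed above 0 under the alternatives run, except that of miR-181b-2-3p, which was 0 with a floor of 5 units. The median of the tested members was 1.19. It was 0.075 with the local background and a normexp offset of 50 units, 0.12 with the local background and an offset of 0, 0.44 with the blank mean and an offset of 50 (the last pair of settings chosen after seeing the data), 0.72 with no background correction and 1.32 in the deposited values, where the median of the miRNAs fitted was 0.11 and the members stood 1.21 above it. Leaving out each array in turn gave 1.15 to 1.24. With the local background 0 members passed as higher at either offset, and under the other alternatives 6 to 8 did, with 7 or 8 when an array was left out.

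Across the array 58 miRNAs were called, 65.5% of them higher. The count was 0 with the local background at either offset, 30 with a floor of 5 units, 35 with no scaling (77.1% higher), 14 in the deposited values (78.6% higher), 19 with no filter, 32 in limma without the trend and 17 with the methods' t-test. With an array left out it was between 25 and 51, with 35 without control replicate 2, 25 without TGF-β replicate 2 and 33 without TGF-β replicate 3. The replicate block gave 60 calls, 8 members passed as higher, and the median of the tested members was 1.19. For same-numbered arrays, the deviations from the group means over 1282 miRNAs correlated at 0.129, 0.111 and -0.027. The numbers were therefore not taken as pairs. The block changed 1 call among the named miRNAs, that of miR-143-3p (adjusted p 0.0369 in limma).

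Other signs turned for miRNAs that were not called, apart from miR-10b-5p and miR-100-5p. The log2 fold changes with the local background at offsets of 50 and 0 were -0.0063 and -0.018 for miR-23a-5p, 0.63 and 0.69 for miR-27a-3p, 0.0045 and 0.019 for miR-486-5p, and 0.23 and 0.057 for miR-10b-5p. At an offset of 0 miR-100-5p was at -0.23. Median scaling gave 0.30 for miR-27a-3p, -0.065 for miR-21-5p and 0.0023 for miR-200b-3p. The 75th percentile gave 0.26 and -0.11, and no scaling 0.27 and -0.089, for miR-27a-3p and miR-21-5p. The deposited values gave 0.40 for miR-27a-3p and 0.093 for miR-200b-3p. When single arrays were left out, the values ran from -0.071 to 0.026 for miR-27a-3p (0.026 without control replicate 1), from -0.019 to 0.16 for miR-155-5p (-0.019 without control replicate 1, -0.0014 without TGF-β replicate 2) and from -0.066 to 0.42 for miR-200a-3p (-0.066 without control replicate 1). They ran from -0.093 to 0.058 for miR-200b-3p (0.026 without control replicate 2, 0.027 without control replicate 3, 0.058 without TGF-β replicate 1) and from -0.052 to 0.43 for miR-4420 (-0.052 without control replicate 2). The cause was not tested. Signal over background limits what can be said of miR-181b-2-3p, miR-181c-3p and miR-181d-3p.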
